A study of Mus musculus with 10 samples.

Results

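Genes of the mitochondrial respiratory chain and ATP synthase were followed in hair follicle stem cells (HFSCs), the resting stem cells of the hair follicle bulge, in mice with and without a conditional deletion of the transcription factor gene Sox9. Members were taken by name: every listed gene whose symbol begins with Nduf followed by a, b, c, s or v, is Sdha, Sdhb, Sdhc or Sdhd, or begins with Uqcr, Cox4 to Cox8 or Atp5, with a mean of at least 1 FPKM over the 4 RNA libraries. FPKM is the fragment count scaled by transcript length and library total, so it can be compared between genes. The rule found 93 symbols among 37298 listed genes, of which 87 passed the minimum, among 14455 genes that passed it in all. By complex, 43 of the 87 belong by name to complex I, 4 to complex II, 8 to complex III, 13 to complex IV and 19 to complex V. Of the 87, 75 are known structural subunits. The other 12 are the complex I assembly factors Ndufaf1 to Ndufaf4, the paralog Ndufa4l2, the supercomplex factor Cox7a2l, the namesakes Cox4nb, Atp5s and Atp5sl, and the copies Atp5l-ps1, Atp5l2 and a second Ndufb8 row.

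The respiratory chain passes electrons from NADH and succinate to oxygen through complexes I to IV and pumps protons across the inner mitochondrial membrane, and complex V, the ATP synthase, uses that gradient to make ATP. Most subunits are encoded in the nucleus and assembled in mitochondria with a few subunits encoded in mitochondrial DNA. Nuclear subunit genes are broadly expressed, and their promoters often carry sites for nuclear respiratory factor 1 and for ETS factors. Quiescent hair follicle stem cells are known for a metabolism with a high share of glycolysis.

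HFSCs were sorted in telogen, when follicles rest, as integrin α6-high, CD34+, ScaI- and YFP+ cells of the back skin of mice on a C57BL6 mixed background. The groups were 2 libraries labelled Sox9 conditional knockout (cKO) and 2 control libraries, whose titles say heterozygous (Het) and whose genotype field says wild type. The labels of all 4 libraries give RU486, which activates the recombinase CrePGR. Replicate 1 of each genotype was male, treated on days 48 to 61 and taken at day 75, and replicate 2 was female, treated on days 53 to 66 and taken at day 80. The labels do not give the promoter that drives CrePGR or say whether a library held 1 mouse or several, so every p-value here reflects only how these 4 libraries vary. ChIP-seq for SOX9 used untreated CD-1 females of days 52 to 60, with 2 libraries of HFSCs and 1 library of interfollicular epidermal (IFE) cells, sorted as integrin α6-high, CD34- and ScaI-.

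Sox9 stood at 71.3 and 80.5 FPKM in cKO replicates 1 and 2, against 82.7 and 46.5 FPKM in controls 1 and 2. It was thus lower in the library labelled cKO in pair 1 only, and directions given here follow the labels. HFSC markers were abundant in all 4 libraries, with a summed level of the 8 genes between 18207 and 22772 FPKM that is mostly Krt15, Krt5 and Krt14. Of the 9 skeletal muscle markers 2 were at 0 in all libraries and the sum lay between 11.2 and 19.3 FPKM, while the 3 endothelial markers summed to at most 0.249 FPKM and the 4 adipocyte markers to at most 0.390 FPKM. In bulk libraries, fewer cells of a type and less RNA per cell cannot be told apart. All FPKM values of a library summed to 584125 and 903766 in cKO replicates 1 and 2, against 555420.0 and 786914 in controls 1 and 2, and the sources used here give no read numbers per library.

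The 87 genes were among the more abundant transcripts. Their median level was 60.0 and 134 FPKM in cKO replicates 1 and 2 and 57.2 and 110.1 FPKM in controls 1 and 2, beside 12.2, 11.2, 12.7 and 11.3 FPKM for all tested genes in the same order. In mean level over the 4 libraries, structural subunits ran from 5.86 FPKM for Cox6b2 to 753 FPKM for Atp5b, and 78 of the 87 members lay at 20 FPKM or more. The members summed to 7416 and 15251 FPKM in cKO replicates 1 and 2, which is 1.27% and 1.69% of those libraries, against 6620.0 and 12720.0 FPKM in controls 1 and 2, which is 1.19% and 1.62%.

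Isoforms of complex IV known from other tissues were nearly absent. The 6 symbols below the minimum were the heart and muscle isoforms Cox6a2, Cox7a1 and Cox8b, the lung isoform Cox4i2, and the testis isoforms Cox7b2 and Cox8c. Cox7a1 was the highest of them, with 0.355 and 0.654 FPKM in cKO replicates 1 and 2, against 0.208 and 0.223 FPKM in controls 1 and 2, while Cox7b2 and Cox8c were listed at 0 in all 4 libraries. Their widely expressed counterparts were well measured: Cox4i1 averaged 557 FPKM over the libraries, and Cox6a1 and Cox7a2 are described with complex IV. The exception was Cox6b2, an isoform of Cox6b1 best known from testis, which passed the minimum.

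Between genotypes, most members had slightly higher FPKM in the libraries labelled cKO in both same-numbered pairs, but no single member passed the test. Of the 87, 69 (79.3%) were higher in cKO in both pairs, where 28.4% of all tested genes were; with every library scaled to the same FPKM sum the count was 45, where 16.3% of all tested genes were. Only 5 members (5.75%) were lower in both pairs, where 29.6% of all tested genes were, 12 differed in sign between the pairs, and 1 was listed at 0 in both libraries of pair 2. The median log2 difference, cKO minus control on the log2(FPKM + 1) scale, was 0.13 in pair 1 and 0.27 in pair 2, with a mean-difference median of 0.21 ± 0.097 (SD between the 2 pair medians). Over all tested genes the same medians were -0.031, 0.030 and -0.0064 ± 0.043. No member differed by more than 0.5 in the same direction in both pairs, so these are small differences spread over many genes.

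The test was limma's moderated test on log2(FPKM + 1) over all 14455 genes with Benjamini-Hochberg adjustment. With genotype alone it called 0 members and 0 genes at an adjusted p under 0.05 (0% of tested genes), while 0 members and 93 genes had an unadjusted p under 0.05 (0.643%). Once blocked on the replicate number, which sets aside the gap between the male and the female pair, the limma fit called 41 genes (0.284%) and still 0 members, and the smallest adjusted p of a member was 0.335. Before adjustment the blocked fit gave 14 members higher and 1 lower in cKO at p under 0.05, that is 17.2% of the 87 in either direction, beside 6.33% of all tested genes higher, 5.07% lower and 11.4% in either direction. These 15 members were 5 of complex I, 1 of complex III, 4 of complex IV and 5 of complex V. With 1 library left out, the fit with genotype alone carries part of the difference between replicates: the members' median was 0.77 without cKO replicate 1 and 0.72 without control replicate 2, but -0.33 without cKO replicate 2 and -0.29 without control replicate 1, with 0 members called each time.

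Cell markers also differed between genotypes. Of the 8 HFSC markers, 3 were lower in cKO in both pairs, 1 was higher in both and 4 differed in sign. Lhx2, a transcription factor of HFSCs, stood at 114 and 87.1 FPKM in cKO replicates 1 and 2, against 359 and 195 FPKM in controls 1 and 2. Cd34, a sorting marker, stood at 459.5 and 463 FPKM in cKO replicates 1 and 2, against 652 and 680.0 FPKM in controls 1 and 2. Nfatc1 stood at 46.7 and 14.1 FPKM in cKO, against 76.7 and 19.8 FPKM in controls. The marker higher in cKO in both pairs was Itga6, the gene of integrin α6, also used for sorting. It stood at 151 and 66.4 FPKM in cKO replicates 1 and 2, against 145 and 58.2 FPKM in controls 1 and 2. The 4 suprabasal markers summed to 2505 and 4662 FPKM in cKO replicates 1 and 2, against 2641 and 7275 FPKM in controls 1 and 2, with 3 of the 4 lower in cKO in both pairs and Krt10 in pair 2 only. The 6 fibroblast markers summed to 22.5 and 22.4 FPKM in cKO replicates 1 and 2, against 16.9 and 8.64 FPKM in controls 1 and 2, but only Col1a2 was higher in cKO in both pairs, and the other 5 were lower in pair 1 and higher in pair 2. The 5 immune markers summed to 13.0 and 32.5 FPKM in cKO replicates 1 and 2, against 11.6 and 27.1 FPKM in controls 1 and 2, with Itgam higher in cKO in both pairs, Cd3e and Cd207 lower in both, and Ptprc and Lyz2 of opposite sign. The part of these markers in the members' difference was not tested.

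**Figure D1:**
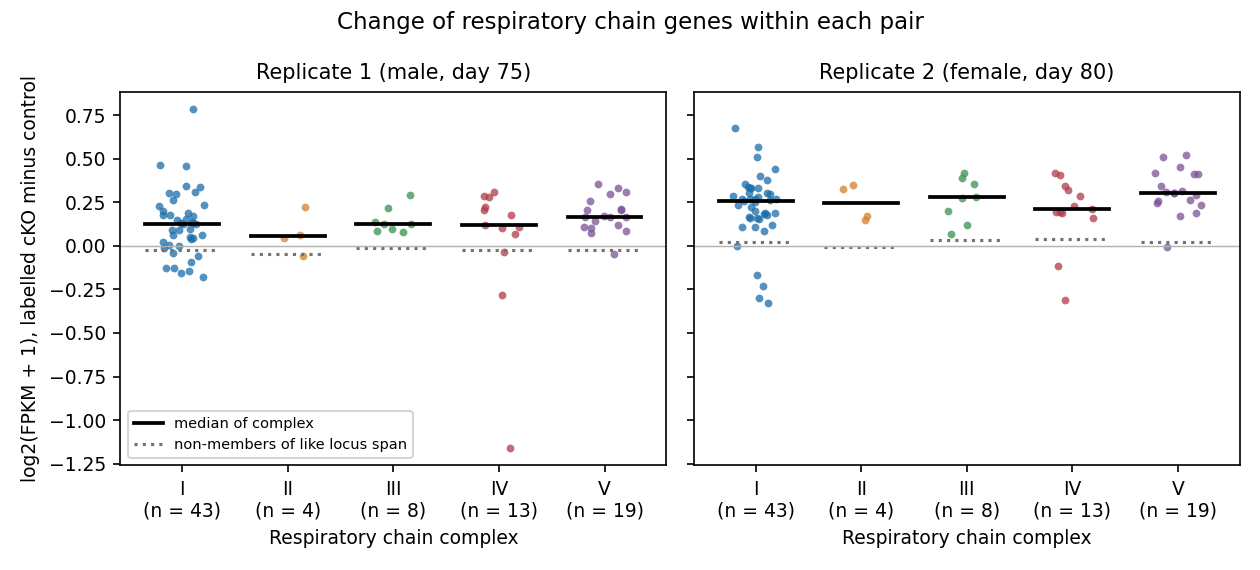
Difference of each member between the library labelled cKO and the control of the same replicate, in log2(FPKM + 1), by complex; points are genes, black bars the complex medians and dotted bars the median of non-member genes of like locus span. The complex medians lie between 0.055 and 0.17 in replicate 1 and between 0.21 and 0.30 in replicate 2, above the dotted bars in every complex, and the lowest point of replicate 1 is Cox6b2 at -1.16; with every library scaled to the same FPKM sum the mean-difference median of complex II turned to -0.0096.

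Complex I, NADH dehydrogenase, was higher in cKO in both pairs for 31 of its 43 members and lower in both for 3, with medians of 0.12 and 0.26 in pairs 1 and 2. Ndufa11, an accessory subunit of the membrane arm, had the highest mean difference: it stood at 30.4 and 74.4 FPKM in cKO replicates 1 and 2, against 27.8 and 46.3 FPKM in controls 1 and 2. Both replicate 2 values lay above both replicate 1 values, so the genotypes overlapped. Its differences of 0.12 and 0.67 gave a mean of 0.40 ± 0.16 (± SE; blocked limma fit, adjusted p = 0.423). Among the core subunits, Ndufs1, the large iron-sulfur subunit that receives electrons from the flavin, stood at 30.3 and 25.4 FPKM in cKO replicates 1 and 2, against 29.2 and 19.3 FPKM in controls 1 and 2. It was higher in cKO within each pair, by 0.052 and 0.38 on the log2 scale. Ndufv1, which carries the flavin that oxidises NADH, stood at 91.5 and 161 FPKM in cKO replicates 1 and 2, against 95.2 and 128 FPKM in controls 1 and 2, so that the pairs pointed in opposite directions (-0.056 and 0.34).

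Accessory subunits and assembly factors of complex I spanned its full range. Ndufb8, whose protein is often used as a marker of assembled complex I, stood at 114 and 270.4 FPKM in cKO replicates 1 and 2, against 92.0 and 224 FPKM in controls 1 and 2, with differences of 0.31 and 0.27. Ndufa9, an accessory subunit at the junction of the arms, stood at 59.8 and 73.3 FPKM in cKO replicates 1 and 2, against 53.6 and 68.1 FPKM in controls 1 and 2, with differences of 0.16 and 0.11 whose mean of 0.13 turned to -0.0030 when every library was scaled to the same FPKM sum. A second row named Ndufb8, a copy that shares its locus with other rows, was listed at 2.60 and 0 FPKM in cKO replicates 1 and 2, against 1.61 and 0 FPKM in controls 1 and 2, and its assignment of reads is uncertain. Ndufaf1, an assembly factor and the lowest of complex I, stood at 7.93 and 11.5 FPKM in cKO replicates 1 and 2, against 9.12 and 14.7 FPKM in controls 1 and 2, with differences of -0.18 and -0.33. The other members lower in both pairs were Ndufv3, a small flavoprotein subunit (-0.091 and -0.30), and Ndufa4 (-0.13 and -0.23), whose protein is now assigned to complex IV although its name places it here.

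Ndufa4 and its paralog Ndufa4l2 differed in their pattern. Ndufa4 stood at 73.5 and 274 FPKM in cKO replicates 1 and 2, against 80.3 and 321 FPKM in controls 1 and 2, and within each genotype replicate 2 was higher. Ndufa4l2, known as a hypoxia-induced gene that lowers complex I activity, stood at 61.6 and 136 FPKM in cKO replicates 1 and 2, against 35.4 and 152 FPKM in controls 1 and 2. It had the widest gap between pairs of any named member, with differences of 0.79 and -0.17, and an adjusted p of 0.645 in the blocked limma fit. Its locus coordinates are shared with another row.

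Complex II, succinate dehydrogenase, links the tricarboxylic acid cycle to the chain, and its 4 genes had medians of 0.055 and 0.25 in pairs 1 and 2, with 3 of the 4 higher in cKO in both. Sdhd, a membrane anchor, stood at 55.7 and 89.1 FPKM in cKO replicates 1 and 2, against 47.6 and 70.8 FPKM in controls 1 and 2, with differences of 0.22 and 0.33. The other anchor, Sdhc, stood at 123 and 214 FPKM in cKO replicates 1 and 2, against 117 and 194 FPKM in controls 1 and 2, with differences of 0.064 and 0.15, and the iron-sulfur subunit Sdhb stood at 52.8 and 96.2 FPKM in cKO replicates 1 and 2, against 51.1 and 85.5 FPKM in controls 1 and 2, with differences of 0.045 and 0.17. The mean differences of both were positive as deposited (0.11 and 0.11) and turned to -0.030 and -0.027 with equal FPKM sums, and Sdhc also turned to -0.014 with quantile normalization. Sdha, the flavoprotein that oxidises succinate, stood at 139 and 119.5 FPKM in cKO replicates 1 and 2, against 145 and 93.8 FPKM in controls 1 and 2. It was lower in cKO in pair 1 and higher in pair 2 (-0.060 and 0.35), and in both genotypes it was lower in replicate 2 than in replicate 1, unlike the other complex II genes. The median of the complex, 0.13, turned to -0.0096 with equal FPKM sums.

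Complex III, the cytochrome bc1 complex, was higher in cKO in both pairs for all 8 of its members. Uqcr11, its smallest subunit, had the highest mean difference: it stood at 74.2 and 217 FPKM in cKO replicates 1 and 2, against 60.5 and 165 FPKM in controls 1 and 2. The 2 replicate 2 values lay above the 2 replicate 1 values, so the genotypes overlapped, and the mean difference was 0.34 ± 0.12 (± SE; blocked limma fit, adjusted p = 0.387). The core proteins differed less. Uqcrc1 stood at 139 and 238 FPKM in cKO replicates 1 and 2, against 130.0 and 207 FPKM in controls 1 and 2, and Uqcrc2 stood at 128 and 184 FPKM in cKO replicates 1 and 2, against 121 and 176 FPKM in controls 1 and 2. Uqcrfs1, the Rieske iron-sulfur protein, stood at 47.99 and 80.9 FPKM in cKO replicates 1 and 2, against 45.3 and 74.4 FPKM in controls 1 and 2. The differences were 0.094 and 0.20 for Uqcrc1, 0.087 and 0.069 for Uqcrc2 and 0.081 and 0.12 for Uqcrfs1. With equal FPKM sums the mean of Uqcrc2 turned to -0.057 and that of Uqcrfs1 to -0.033, and Uqcrc2 also turned to -0.028 with quantile normalization.

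Complex IV, cytochrome c oxidase, was higher in cKO in both pairs for 10 of 13 members and lower in both for 2. Cox4i1, its regulatory subunit and the most abundant member of the complex, stood at 348 and 892 FPKM in cKO replicates 1 and 2, against 286 and 702 FPKM in controls 1 and 2, with differences of 0.28 and 0.34. Cox7b, which is needed for assembly of the complex, had the highest mean difference, 0.32 ± 0.12 (± SE; blocked limma fit, adjusted p = 0.408), from 158 and 299.8 FPKM in cKO replicates 1 and 2, against 135 and 224 FPKM in controls 1 and 2. Cox5a stood at 51.6 and 74.7 FPKM in cKO replicates 1 and 2, against 41.4 and 64.4 FPKM in controls 1 and 2, and Cox5b stood at 55.2 and 102 FPKM in cKO replicates 1 and 2, against 56.7 and 89.2 FPKM in controls 1 and 2. Both encode subunits on the matrix side, and while Cox5a was higher in both pairs (0.31 and 0.21), Cox5b was lower in cKO in pair 1 and higher in pair 2 (-0.036 and 0.19), with a mean of 0.078 that turned to -0.056 with equal FPKM sums.

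The isoform families of complex IV did not all point the same way. Cox6a1 stood at 135 and 279 FPKM in cKO replicates 1 and 2, against 124 and 244 FPKM in controls 1 and 2, and Cox7a2 stood at 81.0 and 223 FPKM in cKO replicates 1 and 2, against 75.4 and 189.8 FPKM in controls 1 and 2, with differences of 0.12 and 0.19 for Cox6a1 and 0.10 and 0.23 for Cox7a2. Cox7a2l, a relative of Cox7a2 that joins complexes III and IV into supercomplexes, stood at 156 and 313 FPKM in cKO replicates 1 and 2, against 145 and 279.7 FPKM in controls 1 and 2, and its mean difference of 0.13 turned to -0.0020 with equal FPKM sums. Cox6b2 stood at 2.44 and 6.28 FPKM in cKO replicates 1 and 2, against 6.70 and 8.02 FPKM in controls 1 and 2. Both cKO values lay below both control values, and the mean difference of -0.74 ± 0.24 was the largest in size among the 87 members but did not pass (blocked limma fit, adjusted p = 0.376). At this low level it depended on the pseudocount, with -0.43 at a pseudocount of 5 and -0.88 at 0.1. Cox4nb, which shares a promoter region with Cox4i1 but encodes a subunit of the endoplasmic reticulum membrane complex, stood at 8.24 and 8.21 FPKM in cKO replicates 1 and 2, against 10.3 and 8.99 FPKM in controls 1 and 2. Cox6b2 and Cox4nb were the 2 members with both cKO values below both control values, where 8.42% of all tested genes were, and the assembly factor Ndufaf4 was the 1 member with both above, where 5.47% of all tested genes were.

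Complex V, the ATP synthase, had medians of 0.17 and 0.30, the highest of the complexes as deposited but not with quantile normalization, with 17 of its 19 members higher in cKO in both pairs and 0 lower in both. Its catalytic part was abundant. Atp5b, the catalytic beta subunit, stood at 684 and 958 FPKM in cKO replicates 1 and 2, against 556 and 815 FPKM in controls 1 and 2, and Atp5a1, the alpha subunit, stood at 496 and 634 FPKM in cKO replicates 1 and 2, against 467 and 557 FPKM in controls 1 and 2. Their differences were 0.30 and 0.23 for Atp5b and 0.085 and 0.19 for Atp5a1, and with quantile normalization the means turned to -0.0029 and -0.076. Atp5c1, the gamma subunit of the rotating stalk, stood at 121 and 264 FPKM in cKO replicates 1 and 2, against 108 and 207 FPKM in controls 1 and 2, with differences of 0.16 and 0.35. Atp5o, the subunit that couples the catalytic head to the outer stalk, stood at 119 and 257 FPKM in cKO replicates 1 and 2, against 106 and 179 FPKM in controls 1 and 2, with differences of 0.17 and 0.52.

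The c subunit of the proton-conducting ring is encoded by 3 genes whose mature proteins are identical. Atp5g2 had the highest mean difference of all 87 members: it stood at 131 and 300.4 FPKM in cKO replicates 1 and 2, against 102 and 211 FPKM in controls 1 and 2. Its 2 replicate 2 values lay above its 2 replicate 1 values, so the genotypes overlapped, while the differences within pairs were 0.36 and 0.51, with a mean of 0.43 ± 0.12 (± SE; blocked limma fit, adjusted p = 0.335; with genotype alone, adjusted p = 1.00). Atp5g1 stood at 37.9 and 77.7 FPKM in cKO replicates 1 and 2, against 35.1 and 62.2 FPKM in controls 1 and 2, with differences of 0.11 and 0.32. Atp5g3 stood at 199 and 301 FPKM in cKO replicates 1 and 2, against 177 and 251 FPKM in controls 1 and 2, with differences of 0.17 and 0.26. In level, Atp5g1 was thus the lowest of the 3 in every library. The lowest mean difference of the complex belonged to Atp5sl, a namesake whose protein is known as an assembly factor of complex I, with differences of 0.073 and -0.0066 and a mean of 0.033 that turned to -0.095 with equal FPKM sums. The copies Atp5l-ps1 and Atp5l2 are close to Atp5l in sequence, and how reads were shared among them is uncertain.

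The summed level of each complex showed the same order of libraries. Complex I summed to 2126 and 4821 FPKM in cKO replicates 1 and 2, against 1946 and 4184 FPKM in controls 1 and 2. Complex V summed to 2725 and 4959 FPKM in cKO replicates 1 and 2, against 2363 and 4011 FPKM in controls 1 and 2. The ratio of cKO to control sums in pairs 1 and 2 was 1.09 and 1.15 for complex I, 1.03 and 1.17 for complex II, 1.10 and 1.21 for complex III, 1.14 and 1.21 for complex IV, and 1.15 and 1.24 for complex V. The sum of all listed FPKM also differed between genotypes, with ratios of 1.05 and 1.15, and the ratio of complex II in pair 1 lay below that of the whole library.

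**Figure D2:**
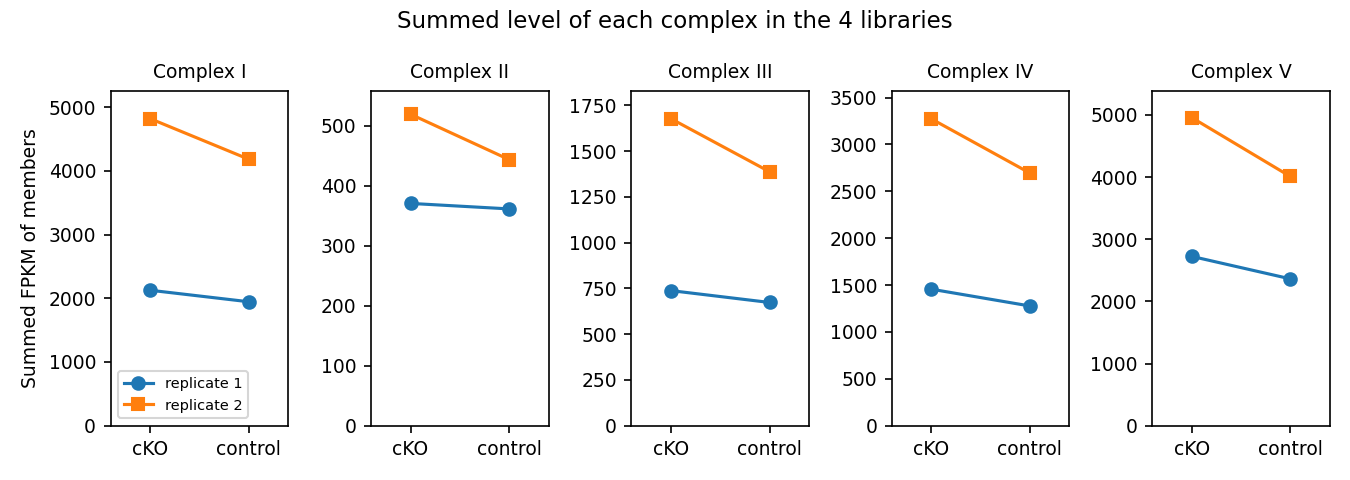
Summed FPKM of the members of each complex in the 4 RNA libraries, cKO on the left and control on the right; lines join libraries of the same replicate and each axis starts at 0. In every complex the cKO library lies above the control of its replicate, by ratios between 1.03 (complex II, replicate 1) and 1.24 (complex V, replicate 2), and both replicate 2 libraries lie above both replicate 1 libraries.

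Since FPKM sums differed, the genotype medians were set against the scaling. Scaling every library to the same FPKM sum, a choice made after the data were seen, placed the median of all tested genes at -0.098 in pair 1 and -0.14 in pair 2, against -0.031 and 0.030 as deposited, a shift that exceeds 0.1 in pair 2. Under it the members' medians were 0.057 and 0.067, and 45 of 87 were higher in cKO in both pairs and 13 lower in both. Of all tested genes 16.3% were higher in both, and the share lower in both is not given. Relative to the median of all tested genes, the members' medians were 0.15 and 0.21 higher under equal sums, close to the 0.16 and 0.24 of the values as deposited. Quantile normalization gave 0.12 and 0.13 over the median of all genes, with 60 members higher in both pairs. The direction of the members' median was therefore positive in both pairs under each of the 7 settings drawn, while its size depended on the setting.

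**Figure D3:**
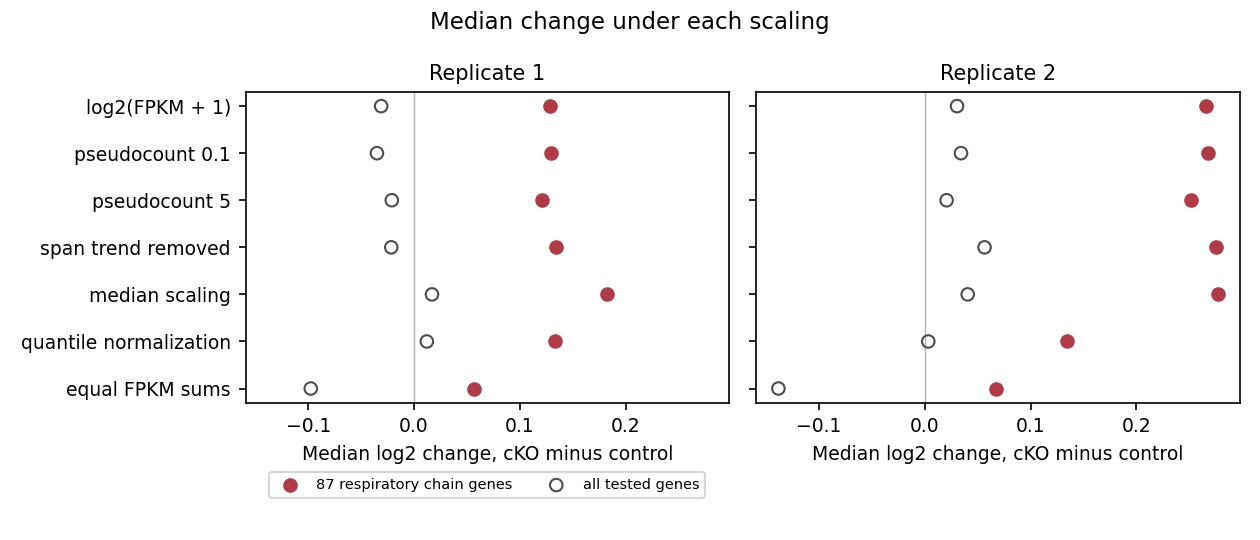
Median log2 difference, cKO minus control, of the 87 members (filled) and of all 14455 tested genes (open) in replicates 1 and 2 under 7 settings. The filled points lie between 0.057 and 0.28, to the right of the open points in every setting, and the equal-sum setting places both sets lowest.

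Members are short genes, so they were set beside non-member genes of like locus span, taken from the same one of 10 equal classes of span. The median locus span was 8705 bp for members and 25752 bp for all tested genes, and 28 members have locus coordinates shared with another row, up to 4435365 bp for Cox4i1 and Cox4nb, where span does not measure the gene. Non-members in the shortest class, up to 1391 bp, had medians of 0.14 and 0.27 in pairs 1 and 2, while in the second class and beyond they lay between -0.075 and 0.048. Against non-members of their class, members were higher by a median of 0.15 in pair 1 and 0.24 in pair 2, and 71 of 87 lay above their class in both pairs and 5 below in both. Of like-span non-members, 28.6% were higher in cKO in both pairs.

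Genes as abundant as the members were closer to them than genes of like span. Non-members of like mean FPKM had medians of 0.15 in pair 1 and 0.19 in pair 2, and 47.5% of them were higher in cKO in both pairs. Against them the members were higher by a median of 0.056 and 0.14, and 46 of 87 lay above their class in both pairs. Matching on span and mean FPKM together, in 5 classes of each, gave 0.083 and 0.15, with 50 members above and 14 below in both pairs. Both matchings on FPKM were chosen after the data were seen. By complex, the difference from genes of like mean FPKM was 0.12 for complex I, 0.031 for complex II, 0.075 for complex III, 0.028 for complex IV and 0.096 for complex V, less than the 0.19, 0.16, 0.21, 0.18 and 0.21 from genes of like span. In pair 1 alone, complexes II, III and IV lay below genes of like mean FPKM, with -0.022, -0.016 and -0.026. The part of abundance in the members' difference was not tested.

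**Figure D4:**
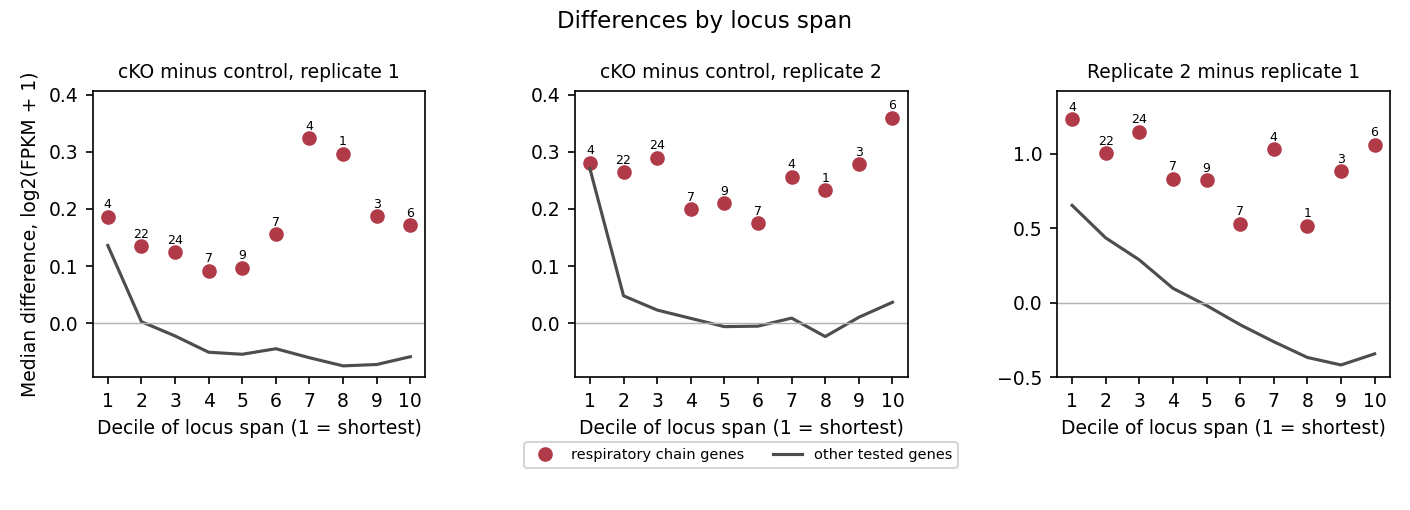
Median difference of members (points, with their number) and of other tested genes (line) in 10 classes of locus span from shortest to longest, for cKO minus control in replicates 1 and 2 and for replicate 2 minus replicate 1, in log2(FPKM + 1). Members lie above the line in each class and panel, the line falls from 0.65 in the shortest class to -0.42 in the ninth in the panel of replicate differences, and the classes hold between 1 and 24 members.

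Further genes, of mitochondrial functions, glycolysis, antioxidant defence and ribosomes, were taken in 12 lists. No gene of any list was called by genotype in either fit. Of all tested genes, 28.4% were higher and 29.6% lower in cKO in both pairs. The 13 subunit genes of mitochondrial DNA were all higher in cKO in both pairs, with medians of 0.15 and 0.43. With equal FPKM sums all 13 were still higher in both, with medians of 0.080 and 0.23. With quantile normalization 1 of 13 was higher in both and 0 lower, and the medians were -0.0014 and 0.17. Of all tested genes 30.1% were then higher in both. By construction that setting gives equal ranks equal values, so it can show little difference among the most abundant genes. Of the 13, mt-Nd6, the complex I subunit on the light strand, stood at 295 and 269 FPKM in cKO replicates 1 and 2, against 245 and 206 FPKM in controls 1 and 2 (blocked limma fit, adjusted p = 0.401). Its locus coordinates are shared with mt-Nd5, so its assignment of reads is uncertain. mt-Co1, the catalytic subunit of complex IV, stood at 5839 and 7649 FPKM in cKO replicates 1 and 2, against 5251 and 5202 FPKM in controls 1 and 2. For both of them the cKO values lay above the control values without overlap. The 4 measured genes of cytochrome c and of subunits outside the name rule, Cycs, Cyc1, Atpif1 and Usmg5, were also higher in both pairs, and Cycs, cytochrome c itself, stood at 15.7 and 20.9 FPKM in cKO replicates 1 and 2, against 13.4 and 13.7 FPKM in controls 1 and 2.

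Assembly factors outside the name rule were mixed. With equal FPKM sums their medians were -0.088 and -0.086, where those of all tested genes were -0.098 and -0.14. Of 26 rows, 8 (30.8%) were higher and 4 (15.4%) lower in cKO in both pairs, where 28.4% and 29.6% of all tested genes were. Their medians were -0.026 and 0.088. Sco1, a copper chaperone of complex IV, stood at 5.79 and 6.21 FPKM in cKO replicates 1 and 2, against 8.32 and 8.34 FPKM in controls 1 and 2, lower in cKO within each pair (-0.46 and -0.37; blocked limma fit, adjusted p = 0.432). Regulators of mitochondrial biogenesis were higher in both pairs in 4 of 16 cases (25%) and lower in both in 6 (37.5%), with medians of -0.15 and 0.0087. With equal FPKM sums 3 were higher and 10 lower, where 16.3% of all tested genes were higher. The share of all tested genes lower in both is not given for that setting, so the 10 have no comparison. The medians were -0.22 and -0.17, beside -0.098 and -0.14 for all tested genes. Esrra, a nuclear receptor that acts on respiratory genes, stood at 26.8 and 37.0 FPKM in cKO replicates 1 and 2, against 20.8 and 26.8 FPKM in controls 1 and 2. Its cKO replicate 1 value and control replicate 2 value were within 0.01 FPKM of each other, with the cKO one higher, so its genotypes were barely apart (blocked limma fit, adjusted p = 0.379).

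Upstream pathways were mixed. With equal FPKM sums the medians of the tricarboxylic acid cycle were -0.028 and -0.12 and those of pyruvate dehydrogenase -0.040 and -0.20. All tested genes then had medians of -0.098 and -0.14. Of the tricarboxylic acid cycle genes 8 of 14 (57.1%) were higher in cKO in both pairs, with medians of 0.043 and 0.072. Of the pyruvate dehydrogenase and pyruvate import genes 2 of 12 (16.7%) were, with medians of 0.030 and -0.011, where 28.4% of all tested genes were. Idh3a, a subunit of the NAD-dependent isocitrate dehydrogenase, gave 0.20 and 0.39, and Pdhx, which tethers a subunit of pyruvate dehydrogenase, gave 0.19 and 0.22. Of the glycolysis and lactate genes 12 of 19 (63.2%) were higher and 4 (21.1%) lower in both pairs, with medians of 0.14 and 0.20. With equal FPKM sums 8 were higher and 5 lower, where 16.3% of all tested genes were higher and the share lower is not given. The medians were then 0.064 and 0.0072. Slc2a1, the glucose transporter GLUT1, stood at 121 and 78.2 FPKM in cKO replicates 1 and 2, against 61.5 and 45.6 FPKM in controls 1 and 2. Both cKO values lay above both control values, and its mean difference of 0.87 ± 0.13 had the smallest adjusted p of any listed gene (± SE; blocked limma fit, adjusted p = 0.0737).

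In the remaining lists, the counts stand beside 28.4% of all tested genes higher and 29.6% lower in both pairs. Of the genes of other electron entry and ubiquinone synthesis, 9 of 16 were higher in both pairs. Among them Coq5, a methyltransferase of ubiquinone synthesis, gave 0.50 and 0.53. The carriers, porins and import genes were higher in both pairs in 9 of 14 cases, with Slc25a5, an ADP/ATP carrier, at 0.46 and 0.43. Antioxidant enzymes were higher in both pairs in 3 of 9 cases (33.3%) and lower in both in 4 (44.4%). Their list is not limited to mitochondrial enzymes, since it includes Cat, Sod1 and Gpx1. Txnrd2, the mitochondrial thioredoxin reductase, gave -0.38 and -0.39. Mitochondrial ribosomal proteins were higher in both pairs in 47 of 80 cases, with medians of 0.10 and 0.24 and Mrps5 at 0.21 and 0.59. Cytosolic ribosomal proteins, also abundant, were higher in both pairs in 197 of 215 rows, pseudogenes included, with medians of 0.23 and 0.42, which lie above those of the respiratory chain genes. Rpl30-ps2, a pseudogene copy of Rpl30, had the smallest p of that list and was lower in cKO (-1.59 and -0.36), and its reads cannot be told apart from those of its parent gene with certainty. With equal FPKM sums, the medians of cytosolic ribosomal proteins were 0.16 and 0.22 and those of mitochondrial ribosomal proteins 0.032 and 0.045. In pair 2 those of carriers and of electron entry turned to -0.020 and -0.077, where that of all tested genes was -0.14.

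The difference between replicates was much larger than that between genotypes. Replicate 2, the female pair of day 80, was higher than replicate 1, the male pair of day 75, for 76 members and lower for 2 at an adjusted p under 0.05 (limma with genotype and replicate as terms, Benjamini-Hochberg adjustment), where 25.8% of all tested genes were higher and 24.1% lower. With no filter on low FPKM, over all 37298 rows, limma called 0 members and 0 genes, while the members' median was 0.91, and the cause was not tested. By complex, 38 of 43 members of complex I, 3 of 4 of complex II, 8 of 8 of complex III, 11 of 13 of complex IV and 16 of 19 of complex V were higher. For 80 of 87 members both replicate 2 values exceeded both replicate 1 values, where 37.9% of all tested genes did. The median log2 difference, replicate 2 minus replicate 1, was 0.96 over the members and -0.0013 over all tested genes. FPKM sums were also higher in replicate 2, with 903766 against 584125 in cKO and 786914 against 555420 in controls. The members' share of the sum was 1.69% against 1.27% in cKO and 1.62% against 1.19% in controls. The replicate difference is not given with equal FPKM sums, and the part of the sums in it was not tested. Non-members of like span had a median of 0.29 and non-members of like mean FPKM one of 0.74, and members lay above these by medians of 0.81 and 0.47.

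The members with the widest replicate difference all bear complex I names. Ndufa4 differed by 1.94, with 274 FPKM in cKO and 321 in control of replicate 2, against 73.5 in cKO and 80.3 in control of replicate 1 (limma, adjusted p = 0.000333). Ndufc2, a subunit of the membrane arm, differed by 1.69, with 142 FPKM in cKO and 127 in control of replicate 2, against 41.4 in cKO and 40.7 in control of replicate 1. Ndufa6, an accessory subunit of the matrix arm, differed by 1.62. At the other end, Sdha was lower in replicate 2, with a log2 difference of -0.42 (limma, adjusted p = 0.0418), the second Ndufb8 row was called lower as well, and Ndufs1 had a difference of -0.41 that did not pass (limma, adjusted p = 0.0539). Genes of mitochondrial DNA had a median of 0.15, with 4 of 13 called higher and 2 lower, while 70 of 80 mitochondrial and 200 of 215 cytosolic ribosomal protein rows were called higher, with medians of 0.82 and 1.44.

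Sex, age, treatment days and library of the replicates cannot be told apart. Other measures also differed between replicates. The 4 suprabasal markers summed to 4662 FPKM in cKO and 7275 in control of replicate 2, against 2505 in cKO and 2641 in control of replicate 1, although Krt1 was lower in replicate 2 in both genotypes. Most of the immune sum is Itgam, and the 5 immune markers summed to 32.5 FPKM in cKO and 27.1 in control of replicate 2, against 13.0 in cKO and 11.6 in control of replicate 1. The 4 sebocyte markers summed to 71.2 FPKM in cKO and 76.2 in control of replicate 2, against 187 in cKO and 149.7 in control of replicate 1. Nearly all of this sum is Scd1 and Fasn, while Pparg was at most 0.645 FPKM and Mc5r at most 0.349 FPKM. Pparg was lower in replicate 2 in cKO only. The difference of non-members fell along locus span from 0.65 in the shortest class to -0.34 in the longest, as the plot by class of locus span shows, and removing a trend on span left the members' median at 0.83. The part of these measures in the replicate difference was not tested.

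SOX9 peaks lay near some respiratory chain genes of every complex. A peak within 10 kb of the locus in both HFSC lists was found for 20 of 87 members, 23.0% (exact 95% interval 14.6 to 33.2), where 17.5% of all tested genes and 15.9% of non-members of like span had one. At least 1 of the 3 lists had a peak near 45 members, 51.7% (40.8 to 62.6), beside 51.4% of all tested genes and 48% of like-span non-members. Single lists had a peak near 35 members in HFSC list 1 (40.2%, beside 34.9% of all tested genes), 27 in HFSC list 2 (31.0%, beside 24.2%) and 27 in the IFE list (31.0%, beside 36.3%). Each of these intervals includes the share of all tested genes, so the shares are not a result about the members. Among the 59 members whose locus is shared with no other row, 9 (15.3%, interval 7.22 to 27.0) had a peak in both HFSC lists, beside 12.2% of like-span non-members, and 24 (40.7%) had one in any list, beside 41.1%. Merged loci span more sequence. Of the 28 members with such a locus 21 (75%, interval 55.1 to 89.3) had a peak in any list, beside 57.2% of like-span non-members. Those non-members were not limited to merged loci, so the shares are not of like sets. Intervals cover counting error only, and the lists give no peak heights.

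**Figure D5:**
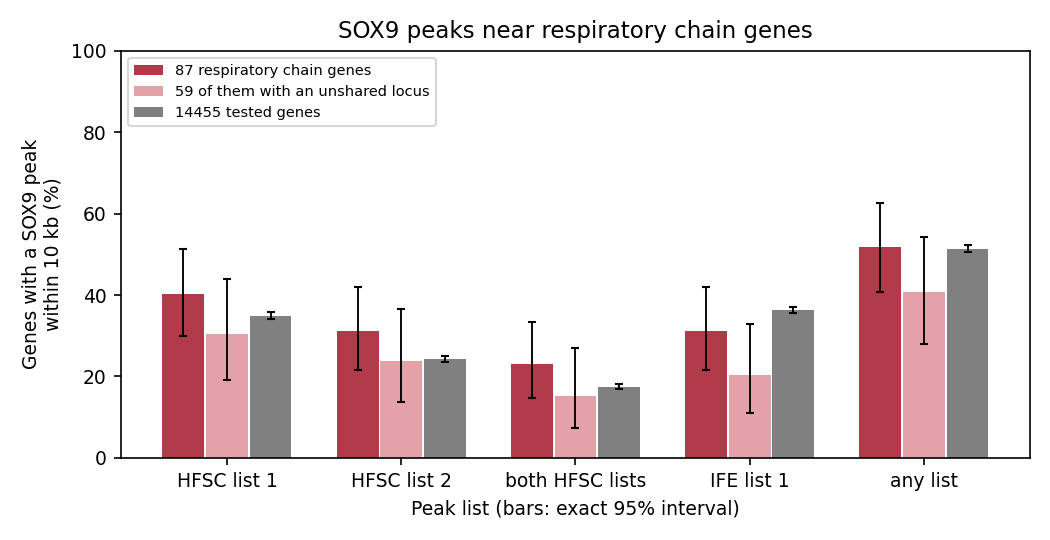
Share of genes with a SOX9 peak within 10 kb of the locus in each peak list, for the 87 members, for the 59 of them with an unshared locus, and for all 14455 tested genes; error bars are exact 95% intervals. For both HFSC lists the shares are 23.0%, 15.3% and 17.5%, and for any list 51.7%, 40.7% and 51.4%.

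The 9 members with an unshared locus and a peak in both HFSC lists were the complex I genes Ndufs7, Ndufa6, Ndufa10, Ndufc1 and Ndufa7, Uqcrc1 of complex III, Cox6a1 of complex IV, and Atp5g1 and Atp5h of complex V. The other 11, with shared loci, were Ndufb6, Ndufa4l2, Uqcrb, Uqcrh, Cox5a, Cox4i1, Cox4nb, Atp5f1, Atp5d, Atp5o and Atp5b. A peak within 1 kb of a locus end was found for 13 of the 59 (22%, interval 12.3 to 34.7), beside 27.1% of other tested genes with an unshared locus. For 11 of the 13 it lay at the 5′ end by the RefSeq strand, for Uqcrc1 at the 3′ end, and for Uqcrq the strand was not matched. The side was not computed for other tested genes, so the count at the 5′ end is not a result about the members. In Ndufa6 (mm9 chr15:82180568-82184721) all 3 lists had a peak over the 5′ end, with that of HFSC list 2 at chr15:82184423-82185035. In Atp5h, which encodes subunit d of the outer stalk (mm9 chr11:115277002-115281276), all 3 lists had one as well, in HFSC list 1 at chr11:115281009-115281857. In Ndufa10, an accessory subunit of the membrane arm (mm9 chr1:94335586-94370437), both HFSC lists but not the IFE list had one, in HFSC list 1 at chr1:94369994-94370608. In Atp5g1 (mm9 chr11:95930165-95936984) HFSC list 1 had one just outside the 5′ end, at chr11:95937041-95937506. In Cox6a1 (mm9 chr5:115795650-115798990) it was in HFSC list 2 alone, at chr5:115798813-115799357, and the HFSC list 1 peak lay 8248 bp from the locus.

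None of these genes differed between genotypes beyond the test. Ndufa6 stood at 91.1 and 277 FPKM in cKO replicates 1 and 2, against 82.0 and 258 FPKM in controls 1 and 2, with differences of 0.15 and 0.11 whose mean turned to -0.0079 with equal FPKM sums. Ndufa10 stood at 48.6 and 70.1 FPKM in cKO replicates 1 and 2, against 42.9 and 61.4 FPKM in controls 1 and 2, with differences of 0.18 and 0.19. Atp5h stood at 92.5 and 181 FPKM in cKO replicates 1 and 2, against 77.2 and 136 FPKM in controls 1 and 2, with differences of 0.26 and 0.41 and the smallest p of these genes (blocked limma fit, adjusted p = 0.397). For each of them both replicate 2 values lay above both replicate 1 values, so the genotypes overlapped.

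The 250 bases before the RefSeq start of these 5 genes (GRCm38.p6) are shown because they have an unshared locus, a peak in both HFSC lists within 10 kb and an HFSC peak within 1 kb of the 5′ end. They are written 5′ to 3′ on the strand of the gene, with capitals for matches on either strand to GCGCATGC (bound by nuclear respiratory factor 1), CCGGAAGT (bound by ETS factors such as GABP) or AACAAT (a SOX-type sequence). The builds of the peaks and of these sequences differ and were not converted, so that where a peak lies within a printed sequence is not given. The windows are chr15:82354292-82354541 for Ndufa6, chr1:92473759-92474008 for Ndufa10, chr11:115419920-115420169 for Atp5h, chr11:96075632-96075881 for Atp5g1 and chr5:115348959-115349208 for Cox6a1, all on the minus strand.
Ndufa6: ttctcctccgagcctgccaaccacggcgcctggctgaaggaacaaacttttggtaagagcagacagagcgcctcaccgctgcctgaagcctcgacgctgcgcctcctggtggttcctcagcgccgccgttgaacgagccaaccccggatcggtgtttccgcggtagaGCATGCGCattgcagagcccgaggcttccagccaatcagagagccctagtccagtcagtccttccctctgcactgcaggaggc
Ndufa10: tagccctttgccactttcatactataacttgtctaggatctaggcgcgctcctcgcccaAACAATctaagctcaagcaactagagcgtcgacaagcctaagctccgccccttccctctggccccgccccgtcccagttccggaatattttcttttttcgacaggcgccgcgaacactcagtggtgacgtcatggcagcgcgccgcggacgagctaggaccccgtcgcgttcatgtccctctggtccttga
Atp5h: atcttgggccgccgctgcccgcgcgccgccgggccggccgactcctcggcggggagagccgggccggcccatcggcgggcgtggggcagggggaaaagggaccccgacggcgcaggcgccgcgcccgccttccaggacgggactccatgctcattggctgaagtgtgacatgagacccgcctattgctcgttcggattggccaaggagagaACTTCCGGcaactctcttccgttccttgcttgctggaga
Atp5g1: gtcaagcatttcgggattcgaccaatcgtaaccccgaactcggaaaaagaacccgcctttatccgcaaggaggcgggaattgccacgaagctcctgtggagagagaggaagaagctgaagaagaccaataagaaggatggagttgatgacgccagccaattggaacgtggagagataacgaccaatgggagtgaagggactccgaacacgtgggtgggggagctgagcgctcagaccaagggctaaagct
Cox6a1: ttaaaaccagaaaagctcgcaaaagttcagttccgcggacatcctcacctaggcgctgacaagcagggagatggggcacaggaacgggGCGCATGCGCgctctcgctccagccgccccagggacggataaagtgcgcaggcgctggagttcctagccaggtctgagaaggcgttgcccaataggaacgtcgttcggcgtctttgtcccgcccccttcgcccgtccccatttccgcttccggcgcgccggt

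Ndufa6 held 1 match to GCGCATGC and Cox6a1 held 2 that overlap in one palindrome, Atp5h held 1 match to CCGGAAGT, and Ndufa10 held 1 match to AACAAT. Atp5g1 held none of the 3, but 5 matches to CCAAT. A RefSeq promoter was matched by symbol for 70 of the 87 members and not for 17, and both Ndufb8 rows were matched to the same promoter. Among the 70, GCGCATGC on either strand was found in 9 (12.9%), among them those of Atp5g2, Ndufa11 and Sdhb, beside 2.56% of 27025 genes with a promoter. Unlike the members, these 27025 genes were not limited to those that passed the FPKM minimum, so the shares are not of like sets. CCGGAAGT was found in 3 (4.29%), those of Uqcr11, Uqcrh and Atp5h, beside 3.23% of all. AACAAT was found in 7 of the 70, beside 10.9% of all. The CCAAT box, searched as CCAAT, was found in 31 (44.3%), beside 37.5%, and the TATA box, searched as TATAAA, in 5 (7.14%), beside 14.3%. A match is a description of these letters in this window and not a site.

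On the mitochondrial chromosome, HFSC list 1 had a peak given as starting at -100 and ending at 6510, and the IFE list one from -75 to 6495, while HFSC list 2 had none there. A start below 0 cannot be a position, and both peaks are given as the deposited lists have them.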

How the data were processed

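FPKM values of 37298 gene rows in 4 RNA libraries and 3 SOX9 peak lists were used as the authors deposited them. Tools in the submitters' processing notes are Cufflinks 1.0.3, TopHat, TopHat2 and Bowtie, with mm9 as the build. Which tool made which values, the peak caller and its threshold were not given in these sources. The deposited FPKM carry no read numbers, so depth is unknown and expression has no counting interval. The deposited peak lists hold positions only (unit: other), with 1 list per library.

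Values were tested as log2(FPKM + 1), which understates differences of low genes, with limma 3.58.1 in R 4.3.3 (eBayes with trend, two-sided, p adjusted by Benjamini-Hochberg, called under 0.05) over the 14455 genes whose mean FPKM reached 1. One fit had genotype alone, and the other had the replicate number as a block. Per the labels, the numbers pair libraries of the same sex, age and treatment days, and same-numbered deviations from the group means correlated at 0.812 across genes and 0.915 across members. Each SE is the moderated one of the blocked limma fit. Both limma fits by genotype were tested on simulated expression values, and the other steps were not.

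Peaks were assigned with Python 3.11.15 and pandas 2.3.3 where they overlapped, by at least 1 bp, a locus extended by 10 kb on each side, and exact intervals came from SciPy 1.17.1. Locus coordinates are those of the deposited table, where neighbouring genes can share one locus. Promoters came from RefSeq (GRCm38.p6). Named genes were Sox9, fixed subunits and isoform families, in each complex the members of highest and lowest genotype change, the 3 members at either end of the replicate difference, members with a peak in both HFSC lists, and the gene of smallest p in each list. One of the fixed subunits is not reported here. The members, the lists and the tests were chosen with earlier results of these data known. Alternatives were other pseudocounts, normalizations, filters, windows and leaving out each library.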

Additional observations from a re-analysis of the deposited data

Results flagged for a closer look

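Some results pointed in opposite directions in the 2 pairs, and for none of them was the difference between pairs tested, since each pair holds 1 library of each genotype. Values are differences between pairs (pair 2 minus pair 1, log2 scale). Ndufa4l2 gave -0.95, with -0.17 in pair 2 and 0.79 in pair 1. Sdha gave 0.41, with 0.35 in pair 2 and -0.060 in pair 1. Ndufv1 gave 0.39, with 0.34 in pair 2 and -0.056 in pair 1. Cox5b gave 0.23, with 0.19 in pair 2 and -0.036 in pair 1. Atp5sl gave -0.080, with -0.0066 in pair 2 and 0.073 in pair 1.

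Of the pathway lists, the median of the assembly factors outside the name rule gave 0.11, with 0.088 in pair 2 and -0.026 in pair 1. That of the pyruvate dehydrogenase and pyruvate import genes gave -0.041, with -0.011 in pair 2 and 0.030 in pair 1. That of the mitochondrial biogenesis regulators gave 0.16, with 0.0087 in pair 2 and -0.15 in pair 1.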

How the results depend on the processing

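Without a block, a fit on 3 libraries mixes the replicate difference into each value, so a turned sign does not show that a genotype difference rests on that library. The count of genes called by genotype lay between 2 and 41 (0 with all 4), with 0 members called each time. The medians lay between -0.33 and 0.77 for all members, -0.34 and 0.75 for complex I, -0.18 and 0.52 for complex II, -0.41 and 0.90 for complex III, -0.36 and 0.77 for complex IV, and -0.25 and 0.81 for complex V. In complex I, Ndufs1 lay between -0.072 and 0.50, Ndufv1 between -0.27 and 0.55 and Ndufa9 between -0.039 and 0.30. Ndufb8 lay between -0.35 and 0.93, Ndufa4 between -1.17 and 0.82, Ndufa4l2 between -0.73 and 1.35 and Ndufa11 between -0.23 and 1.03. Ndufaf1 lay between -0.57 and 0.060, Ndufc2 between -0.79 and 0.96, Ndufa6 between -0.69 and 0.95 and Ndufs7 between -0.39 and 0.77. Ndufa10 lay between -0.076 and 0.44, Ndufc1 between -0.27 and 0.76, Ndufa7 between -0.50 and 0.82 and Ndufb6 between -0.16 and 0.80. In complex II, Sdha lay between -0.17 and 0.46, Sdhb between -0.32 and 0.53, Sdhc between -0.29 and 0.51 and Sdhd between -0.060 and 0.61. In complex III, Uqcrc1 lay between -0.24 and 0.53, Uqcrc2 between -0.19 and 0.35, Uqcrfs1 between -0.27 and 0.47 and Uqcr11 between -0.43 and 1.11. Uqcrb lay between -0.40 and 0.89 and Uqcrh between -0.55 and 0.95. In complex IV, Cox4i1 lay between -0.36 and 0.99, Cox5a between -0.052 and 0.57, Cox5b between -0.36 and 0.52 and Cox6a1 between -0.36 and 0.68. Cox7a2 lay between -0.56 and 0.89, Cox7a2l between -0.36 and 0.63 and Cox7b between -0.14 and 0.78. In complex V, Atp5a1 lay between -0.041 and 0.31, Atp5b between -0.010 and 0.54, Atp5c1 between -0.31 and 0.82 and Atp5o between -0.21 and 0.90. Atp5g1 lay between -0.29 and 0.72, Atp5g2 between -0.17 and 1.03, Atp5g3 between -0.084 and 0.51 and Atp5sl between -0.084 and 0.15. Atp5f1 lay between -0.25 and 0.62, Atp5d between -0.37 and 0.85 and Atp5h between -0.15 and 0.81.

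The replicate block gave 41 genes called by genotype, and 44 with a trend on locus span removed as well, with 0 members in either. It changed no call of a member. With no filter on low values limma called 7 genes by genotype, and 0 genes and 0 members by replicate, against 7221 and 78 with the filter. The cause was not tested. The members' replicate median of 0.96 was 0.89 at a pseudocount of 5, 0.62 with quantile normalization, 1.11 with median scaling and 0.83 with the span trend removed. Quantile normalization gave genotype medians of 0.16 for complex I, 0.060 for complex II, 0.12 for complex III, 0.070 for complex IV and 0.15 for complex V, and turned Sdhc to -0.014, Uqcrc2 to -0.028, Atp5a1 to -0.076 and Atp5b to -0.0029. Equal FPKM sums, added after the data were seen, gave 0.073 for all members, 0.058 for complex I, -0.0096 for complex II, 0.084 for complex III, 0.060 for complex IV and 0.12 for complex V. They turned Ndufa9 to -0.0030, Sdhb to -0.027, Sdhc to -0.030, Uqcrc2 to -0.057, Uqcrfs1 to -0.033, Cox5b to -0.056, Cox7a2l to -0.0020, Atp5sl to -0.095, Ndufc2 to -0.047 and Ndufa6 to -0.0079. By construction this setting lowers cKO against control by the ratio of the FPKM sums. A window of 50 kb gave 33 members with a peak in both HFSC lists, and members with an unshared locus gave 9 in both and 24 in any list, by construction of a wider window and of fewer genes. The share of all tested genes at 50 kb is not given, so the 33 are not a result about the members. Cox6b2, -0.74 as reported, was -0.43 at a pseudocount of 5. Read depth is unknown, which limits what low genes such as Cox6b2 can show.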
